A study of Mus musculus with 15 samples.

Results

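The Schlafen genes are a family of interferon-regulated genes, and 7 of them, Slfn5, Slfn9, Slfn8, Slfn2, Slfn1, Slfn4 and Slfn3 in chromosome order, were followed through 10 CUT & RUN region lists of mouse bone marrow-derived macrophages (BMDMs). In CUT & RUN an antibody directs a nuclease to the protein of interest, and the cut DNA fragments are sequenced. The members are 7 of the 21938 protein-coding genes of the GENCODE M21 annotation (mm10), and lie within 263.806 kb of chromosome 11 (82951349 to 83215154). The family was chosen with its region calls in both genotypes known. Its values in wild-type (WT) against H3.3 conditional knockout (cKO) libraries were therefore the values used in choosing it, and are given as a description without a test.

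Schlafen proteins share an N-terminal core. Short members (Slfn1 and Slfn2) have little more than this core, intermediate members (Slfn3 and Slfn4) are extended, and long members (Slfn5, Slfn8 and Slfn9) also carry a C-terminal helicase-like part. Many are induced by type I interferon in myeloid cells, and they are known for effects on cell growth, T cell quiescence, tRNA and virus replication. Acetylation of histone H3 at lysine 27 (H3K27ac) marks active promoters and enhancers. Trimethylation of lysine 36 (H3K36me3) is laid down over the bodies of transcribed genes. H3.3 is a histone H3 variant that is placed in chromatin outside DNA replication.

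WT cells carried H3f3a fl/fl and H3f3b fl/fl, the floxed forms of both genes that encode H3.3, without Cre. The cKO cells carried the same alleles with LysM cre/cre, that is, Cre at Lyz2, which is active in macrophages and granulocytes. The H3.3-HA cells came from knock-in mice whose H3f3b carries an HA tag, and keep H3.3. Mice were of a C57BL/6 background, 8 to 10 weeks old and of both sexes, and marrow cells were grown for 6 to 8 days in L929-conditioned medium. The study states that deletion of H3f3b could be complete or partial, so cKO cultures can hold cells with some H3.3. Each of the 5 groups, which were H3.3-HA and the 2 marks in either genotype, had 2 libraries labelled as biological replicates, and whether each came from its own mouse was not stated. A further 5 IgG samples were not analysed here.

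Libraries held 5365319 to 29988098 tags, and a called region is an interval with no height, so presence and length are compared. The H3K27ac lists of cKO held 35018 and 41444 regions against 61764 and 54630 in WT, and those of H3K36me3 43586 and 43927 against 49741 and 49931. The H3K27ac regions covered 46.2 and 62.0 Mb of the genome in cKO replicates 1 and 2, against 89.6 and 74.8 Mb in WT. In cKO replicate 1 of this mark 11.8% of tags lay in regions, against 17.8% to 24.1% in its other libraries. WT H3K27ac replicate 2 had 16444864 tags, against 25560110 to 29988098 in the others of the mark. Among the H3K36me3 libraries, 1 stood apart. The cKO H3K36me3 replicate 1 regions covered 90.7 Mb of the genome, against 163 Mb for cKO replicate 2 and 164 and 170 Mb for WT. In that library 19.3% of tags lay in regions, against 46.5% to 50.2% in the others of the mark. All 8 macrophage markers had an H3K36me3 region in the 4 libraries of that mark. For H3K27ac 8 of 8 had one in each library except cKO replicate 1, with 7 of 8, where Mertk had none. The covered share of H3K27ac was lower in both cKO libraries at Adgre1, Itgam, Mertk and Lyz2, the gene that carries Cre (94.2% and 88.4% in WT, 28.1% and 24.4% in cKO), and higher at Cd68. Lost H3K27ac regions (in both WT lists and neither cKO list) lay at Adgre1, Itgam, Cd68 and Mertk, and gained ones (the opposite) at Csf1r and Spi1. H3K36me3 coverage was higher in both cKO libraries at Csf1r, Cd68 (48.8% and 62.0% in WT, 100% in both cKO libraries) and Lyz2. It overlapped between genotypes at the other macrophage markers. The part of these marker differences in the results below was not tested. Of 14 markers of T cells, B cells, neutrophils, stroma and erythroid cells, 2 and 3 had an H3K27ac region in WT and 3 and 4 in cKO, and 0 to 1 had an H3K36me3 region. H3K27ac covered the neutrophil marker Elane in all 4 libraries (15.97% and 7.19% in WT, 7.19% and 23.7% in cKO). The B cell marker Ms4a1 was also covered in all 4 (21.2% and 19.7% in WT, 14.6% and 25.8% in cKO). Cd79a of B cells was covered in replicate 2 of WT (4.88%) and of cKO (11.8%) only, and Cd3d of T cells in cKO only. Cd3e, S100a8, S100a9, Col1a1 and Hba-a1 were at 0 in the 8 libraries of both marks. Regions remained over the targeted genes: H3K27ac covered 23.9% and 24.1% of H3f3b in WT and 55.4% and 73.6% in cKO. The lists thus do not show the deletion by themselves, and WT and cKO name libraries as labelled.

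The promoter sequences of 5 members are shown first, because H3K27ac regions were called at or near the starts of Slfn1, Slfn4 and Slfn5 in both cKO libraries and not in WT, and because Slfn8 and Slfn9 share much of their promoter. Each runs from 250 bases before to 50 bases after the start given by RefSeq, 5′ to 3′ on the gene's strand (GRCm38.p6, the mm10 build). Capitals mark a match, on either strand, to a core of the interferon-stimulated response element (ISRE, searched as GAAANNGAAA) or to the AP-1 site (TGANTCA). The GAS element (TTCNNNGAA), which STAT dimers bind, and the PU.1 site (GAGGAAGT) were searched too.
Slfn1: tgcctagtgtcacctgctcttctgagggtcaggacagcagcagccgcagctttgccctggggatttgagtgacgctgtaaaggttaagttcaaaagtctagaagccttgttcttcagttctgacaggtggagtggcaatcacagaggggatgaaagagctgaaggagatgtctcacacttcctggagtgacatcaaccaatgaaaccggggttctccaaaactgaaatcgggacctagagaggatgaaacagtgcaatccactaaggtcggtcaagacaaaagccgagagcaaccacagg
Slfn4: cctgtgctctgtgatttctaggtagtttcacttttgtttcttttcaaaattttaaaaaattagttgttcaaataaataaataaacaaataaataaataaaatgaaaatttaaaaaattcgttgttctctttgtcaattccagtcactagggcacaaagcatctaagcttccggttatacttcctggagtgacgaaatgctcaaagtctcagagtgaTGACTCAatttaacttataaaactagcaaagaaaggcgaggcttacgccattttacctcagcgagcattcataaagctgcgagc
Slfn5: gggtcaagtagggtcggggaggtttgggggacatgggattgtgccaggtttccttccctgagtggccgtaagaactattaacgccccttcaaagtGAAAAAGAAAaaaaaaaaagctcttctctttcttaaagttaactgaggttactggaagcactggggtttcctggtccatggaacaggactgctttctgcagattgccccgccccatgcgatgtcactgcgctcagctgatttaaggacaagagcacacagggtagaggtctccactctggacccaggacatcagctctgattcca
Slfn8: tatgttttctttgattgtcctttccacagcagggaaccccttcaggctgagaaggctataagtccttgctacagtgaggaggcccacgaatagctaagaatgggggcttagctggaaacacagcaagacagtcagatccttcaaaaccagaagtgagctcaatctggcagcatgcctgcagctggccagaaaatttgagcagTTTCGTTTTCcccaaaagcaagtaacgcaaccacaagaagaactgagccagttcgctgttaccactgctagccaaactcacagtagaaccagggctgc
Slfn9: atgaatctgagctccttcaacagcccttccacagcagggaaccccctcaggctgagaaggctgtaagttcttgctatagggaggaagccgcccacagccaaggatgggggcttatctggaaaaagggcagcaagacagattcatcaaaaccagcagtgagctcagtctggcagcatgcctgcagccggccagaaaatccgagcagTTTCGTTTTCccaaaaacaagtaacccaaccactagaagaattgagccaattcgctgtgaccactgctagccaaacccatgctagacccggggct

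The sequences lie at chr11:83116570-83116869 (plus strand) for Slfn1, chr11:83174936-83175235 (plus) for Slfn4, chr11:82951852-82952151 (plus) for Slfn5, chr11:83020761-83021060 (minus) for Slfn8 and chr11:82991781-82992080 (minus) for Slfn9. The ISRE core was present in the 3 long members. Relative to the start it lay at -45 to -36 in Slfn9 and at -48 to -39 in Slfn8, as the same letters, TTTCGTTTTC. RefSeq gives Slfn8 another start as well (chr11:83020722), from which the same match lies at -136 to -127. In Slfn5 the match lay at -155 to -146, at the edge of a run of A. The AP-1 site was present in Slfn4, at -34 to -28. No searched motif was found in these windows of Slfn1, Slfn2 or Slfn3. Of all 32851 RefSeq promoters of this length, 3.44% held the ISRE core, 7.81% the AP-1 site, 8.30% the GAS element and 3.20% the PU.1 site. The Slfn8 and Slfn9 promoters were identical at 252 of 312 aligned positions (80.8%). The next most similar pair, Slfn1 and Slfn8, reached 53.0%. A match describes letters only.

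**Figure D1:**
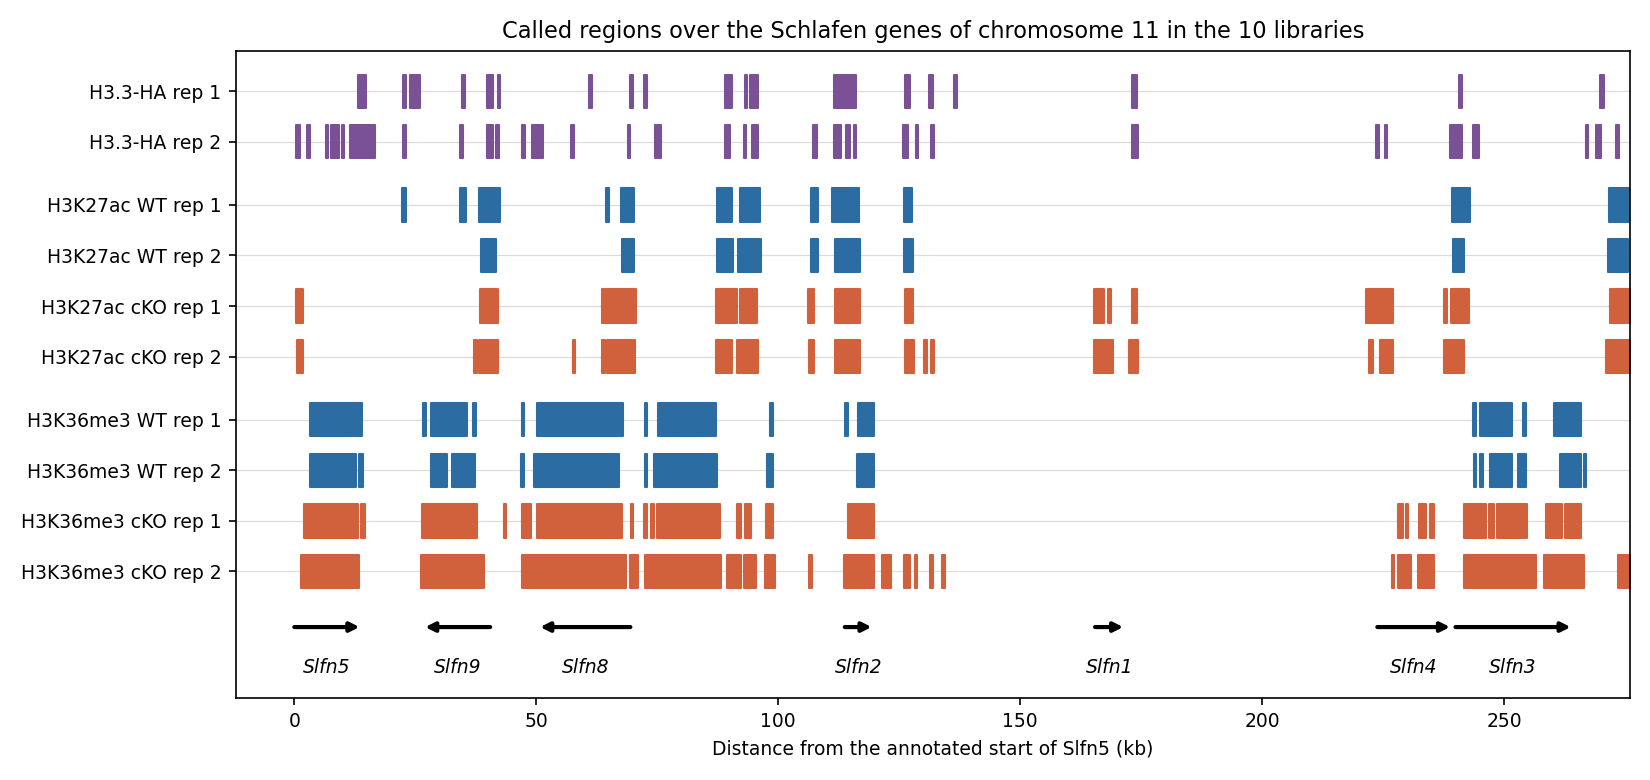
Regions called in each of the 10 libraries (bars, 1 lane per library) against the distance from the annotated start of Slfn5 in kb, with arrows for the 7 genes in the direction of transcription. The WT lanes of H3K27ac are empty around the starts of Slfn5, Slfn1 and Slfn4, where both cKO lanes carry bars within the 5 kb upstream or in the first part of the gene, and a stretch of 47.097 kb between Slfn1 and Slfn4 is empty in every lane.

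H3K27ac is described first. For each gene the share of its window covered by regions was computed, the window being the gene body plus 5 kb upstream. In 5 of 7 members (Slfn5, Slfn8, Slfn1, Slfn4 and Slfn3) this share was higher in both cKO libraries than in both WT libraries, and in 0 of 7 it was lower. Among the 12767 protein-coding genes with an H3K27ac region in any of the 4 lists, 17.4% were higher by this rule and 38.2% lower. Because the members were chosen on this contrast, nothing is read from these counts. The median difference over the members, cKO minus WT, was 6.70 percentage points, with a range of -1.41 to 29.6, and that over all these genes was -1.02.

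Slfn1, the short member that gave the family its name as a growth-inhibiting gene of thymocytes, had no H3K27ac region in either WT library. Regions covered 23.7% of its window in cKO replicate 1 and 35.4% in cKO replicate 2, a mean of 29.6% ± 8.29 (SD, n = 2). The groups did not overlap. The regions merged into an interval of 3833 bp (chr11:83116686-83120518) that covered the start and exon 1 of 2 exons of transcript Slfn1-201. It was called as regions of 1895 and 670 bp in replicate 1 and as a single region of 3833 bp in replicate 2. Of the promoter printed above, 58% and 61.3% was covered in cKO. Neither H3.3-HA library had a region there.

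Slfn4, an intermediate member known to be induced by interferon and Toll-like receptor signals in myeloid cells, likewise had no H3K27ac region in WT. Coverage was 31.2% and 24.5% in cKO replicates 1 and 2, a mean of 27.8% ± 4.70 (SD, n = 2), again without overlap. The merged interval of 5614 bp (chr11:83172791-83178404) spanned exons 1 to 4 of the 8 exons of Slfn4-201. The cKO replicates differed in shape. Within this interval replicate 1 had a single region of 5566 bp that covered the whole promoter with its AP-1 match. Replicate 2 had regions of 839 and 2745 bp on either side, which left the promoter uncovered. The coverage also counts calls at the 3' end of Slfn4. These were a region of 674 bp in replicate 1 and part of a region of 4136 bp in replicate 2. Both belong to the merged region over the Slfn3 start, which was called in all 4 libraries, so not all of the coverage was gained.

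Slfn5, a long member that acts in the nucleus, had no H3K27ac region in WT and a small region in both cKO libraries, covering 7.01% and 6.39% of its window. The mean was 6.70% ± 0.444 (SD, n = 2). The region, 1297 bp when merged (chr11:82951809-82953105), began 3' of the first GENCODE start of the gene and overlapped exon 1 of transcript Slfn5-201. It covered the RefSeq start, which lies 753 bp downstream of the GENCODE start, and 100% and 77.3% of the printed promoter in cKO. The antisense gene Slfn5os overlaps the same interval, and a region has no strand, so it cannot be assigned to either gene.

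At Slfn8, a long member of the mouse family, WT libraries already had H3K27ac at the start, and the difference was one of length. Coverage was 14.8% and 11% in WT and 29.3% and 28.5% in cKO, means of 12.9% ± 2.68 and 28.9% ± 0.628 (SD, n = 2 each). The region over the start measured 2706 and 2600 bp in WT and 6942 and 5730 bp in cKO. This region reached further into the gene in both cKO libraries, while the promoter itself was fully covered in all 4. WT replicate 1 also had a separate region of 790 bp deeper in the gene (chr11:83015687-83016476). It lay inside the long cKO replicate 1 region and across the inner end of that of replicate 2. Part of the difference was thus 1 joined call against separate calls. Separate regions of 501 bp lay further in for cKO replicate 2.

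At Slfn3, an intermediate member, H3K27ac covered 12.6% and 7.46% of the window in WT and 14.8% and 14.3% in cKO, means of 10.0% ± 3.61 and 14.6% ± 0.334 (SD, n = 2 each). This direction depended on the window, whose 5 kb upstream lie partly in the body of Slfn4. With the gene body alone the difference was -0.651 points, against 4.57 with the window. Start and promoter were covered in all 4 libraries.

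Slfn9, the long neighbour of Slfn8, and Slfn2, a short member needed for quiescence of T cells and monocytes, overlapped between genotypes. At Slfn9 coverage was 29.1% and 16.9% in WT and 21% and 23.9% in cKO. At Slfn2 it was 52.9% and 48.1% in WT and 49.0% and 49.2% in cKO, where the window was covered most among the members in WT. Both promoters were fully covered in all 4 libraries. In WT the order by mean was Slfn2, Slfn9, Slfn8 and Slfn3, with the other 3 at 0, and only Slfn8 and Slfn3 overlapped among neighbours in this order (n = 2 each).

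**Figure D2:**
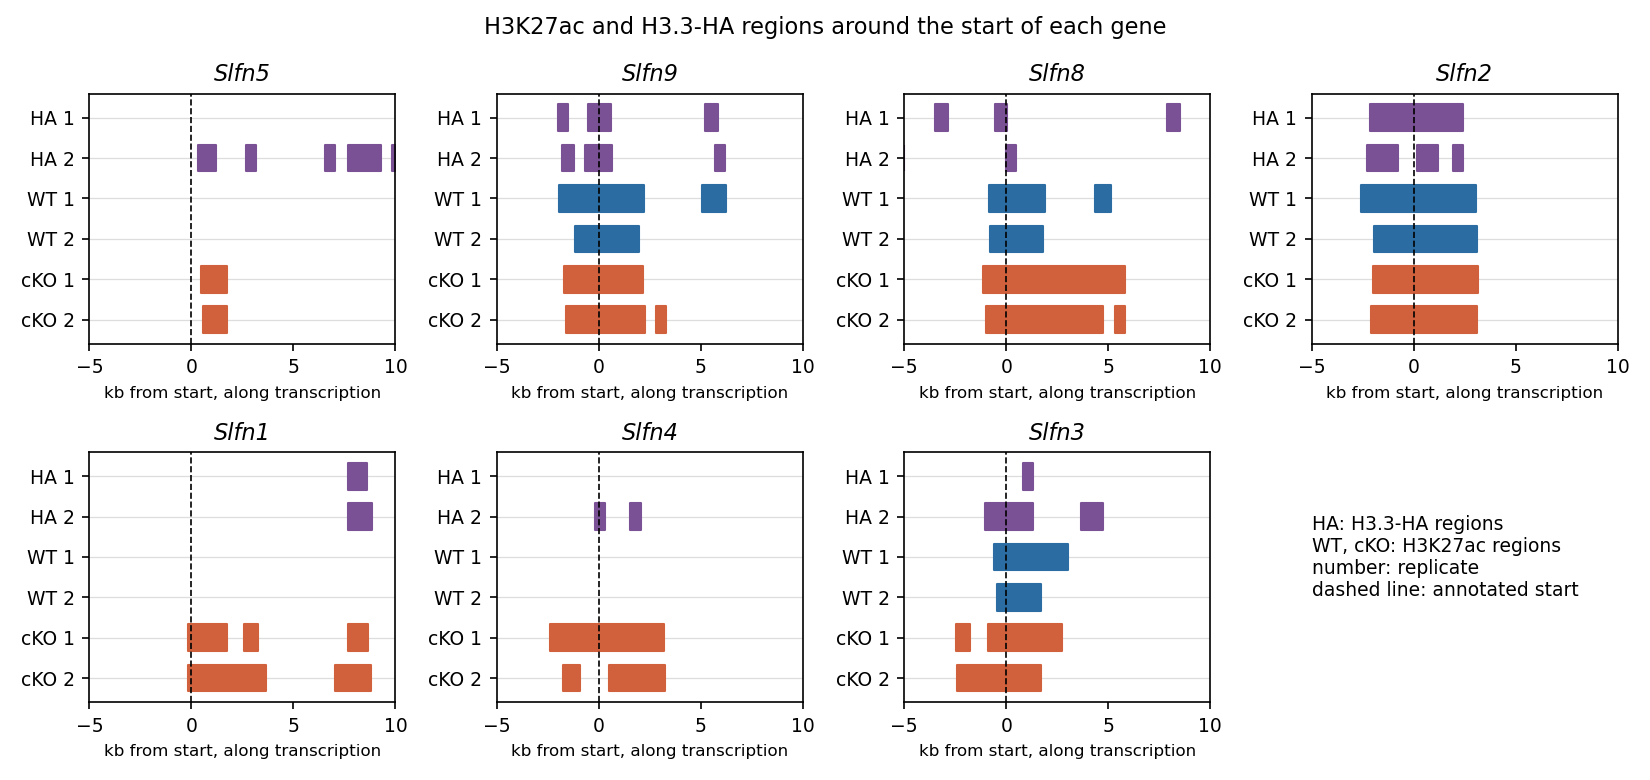
H3K27ac regions of WT and cKO libraries and H3.3-HA regions from 5 kb before to 10 kb after the annotated start of each gene, in kb along the direction of transcription, 1 lane per library. Bars in the cKO lanes stand opposite empty WT lanes at Slfn5, Slfn1 and Slfn4, are longer at Slfn8 (6942 and 5730 bp against 2706 and 2600 bp), and match closely at Slfn2.

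Merging the 4 H3K27ac lists gave 10 regions that touched a member window. Of these, 3 were gained, that is, present in the lists of both cKO replicates and absent from both WT lists, namely those at Slfn1, Slfn4 and Slfn5, and 0 were lost by the opposite rule. Another 4 were called in all 4 libraries and 3 in other combinations. Over all merged H3K27ac regions 3.34% were gained and 14.2% lost. Counted by gene, 3 of 7 members had a gained and 0 of 7 a lost region, against 17.3% and 37.3% of the genes with a region. The gained count was 7 without cKO replicate 1 and 5 without cKO replicate 2, and 1 region was lost without WT replicate 2. Leaving a library out eases the rule, so these rises say nothing about stability. The marker Cd3d of T cells was also covered by H3K27ac in cKO only, at 8.56% and 13.2%, while Cd3e and Cd4 were at 0 in all 4 libraries. The part of other cells in these gains was not tested. A region called in fewer cells and a weaker region per cell cannot be told apart in these bulk cultures.

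H3K36me3 covered more of the window in both cKO libraries than in both WT libraries at 6 of 6 members with a region, and Slfn1 had no region in any of the 4 lists. None was lower (0 of 6). Among the 11975 genes with an H3K36me3 region in any list, 7.85% were higher and 37.7% lower by the same rule, which is given beside a count that the choice of members used. The median member difference was 18.8 points, with a range of 0 to 29.5, against -4.99 over all these genes.

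The intermediate members lay at the upper end. Slfn4 had no H3K36me3 region in WT, and coverage of 18.9% and 32.0% in cKO replicates 1 and 2, a mean of 25.4% ± 9.27 (SD, n = 2). Slfn3, directly downstream, was covered at 38.3% and 33.6% in WT and at 58.3% and 72.5% in cKO, means of 36% ± 3.38 and 65.4% ± 10.0 (SD, n = 2 each). In both genes the regions lay in the body, 3' of the start, with 1 exception. In cKO the upstream part of the Slfn3 window also took in the end of a region in the body of Slfn4.

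The long members were the most covered in WT, and their differences were smaller than those of the intermediate members. Slfn5 had 55.4% and 51.7% in WT and 60.9% and 65.3% in cKO, means of 53.5% ± 2.60 and 63.1% ± 3.08 (SD, n = 2 each). Slfn9 had 44.3% and 44.6% in WT against 60.8% and 65.6% in cKO, means of 44.4% ± 0.180 and 63.2% ± 3.43 (SD, n = 2 each). The groups did not overlap at either gene. Slfn8 had 74.4% and 72.0% in WT and 77.5% and 91.3% in cKO. Here cKO replicate 1 was only a little above WT, and the cKO SD of 9.72 was close to the difference of 11.2 points. Some of these windows are less unique in sequence than others. The share of positions whose 25-mer is unique in the genome was 59.5% in the Slfn8 window and 64% in that of Slfn9, 65.7% for Slfn3 and 70.3% for Slfn4, against 91.7% for Slfn5. Reads were 25 bp long, and a read from the other positions, taken without its mate, matches more than 1 place. Values of Slfn8, Slfn9, Slfn3 and Slfn4 are thus less certain as values of a single gene. How far read pairs resolve this was not tested.

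The short members differed from each other. Slfn2 had 32.4% and 28.9% of its window covered in WT and 45.7% and 53.2% in cKO, means of 30.6% ± 2.50 and 49.5% ± 5.31 (SD, n = 2 each). Slfn1 was at 0 in all 4 libraries, although its H3K27ac region was gained and 82.1% of its window was unique at 25 bp. The antisense gene Gm20234 overlaps Slfn2 and was covered with it. In WT the order by mean was Slfn8, Slfn5, Slfn9, Slfn3 and Slfn2, with no overlap between neighbours in this order (n = 2 each).

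**Figure D3:**
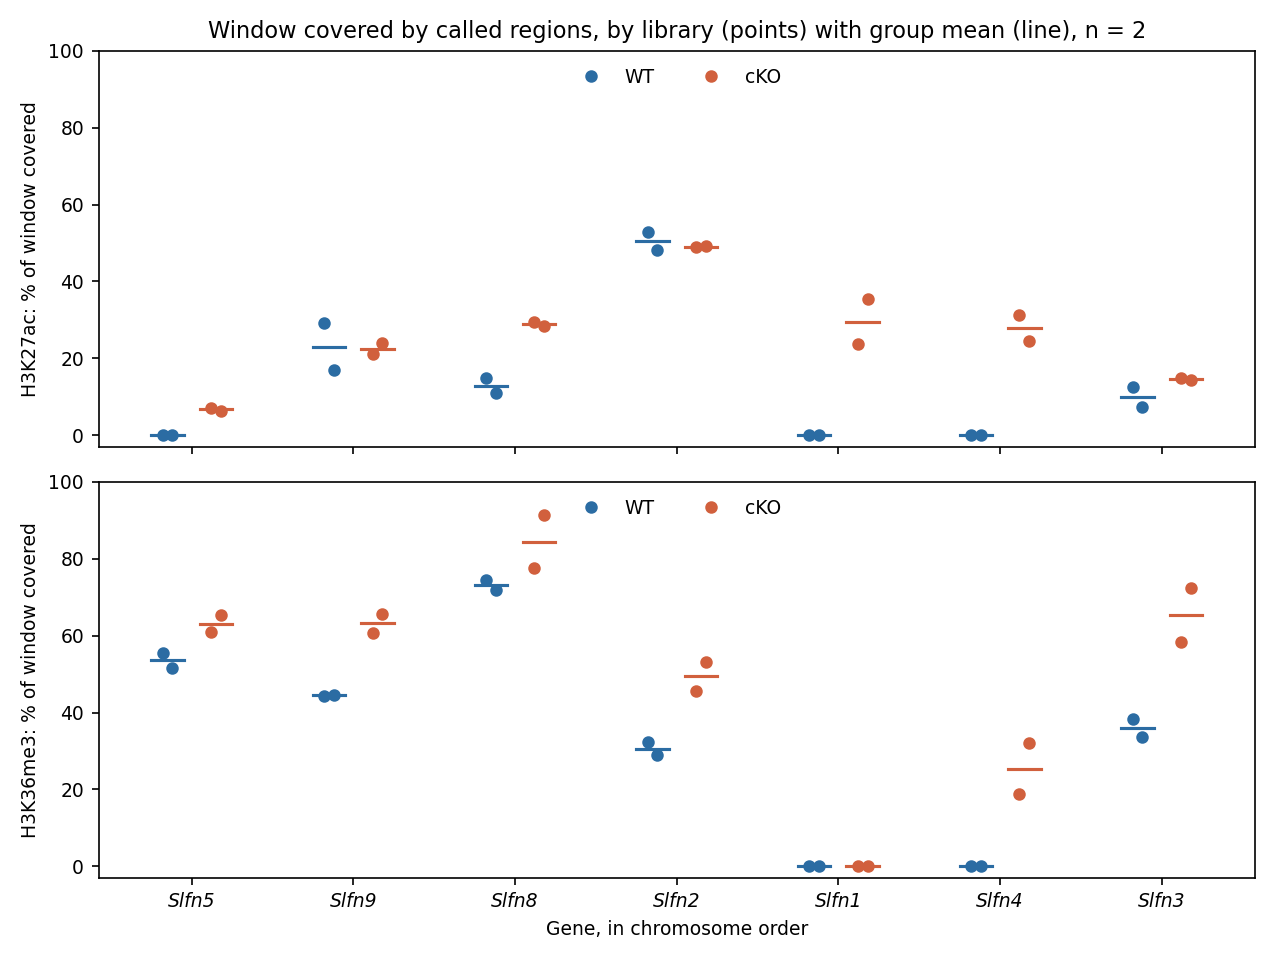
Share of each gene's window covered by H3K27ac regions (upper panel) and H3K36me3 regions (lower panel), in %, with a point per library and a line at the mean of 2 libraries. H3K27ac points of WT sit at 0 for Slfn5, Slfn1 and Slfn4, and the H3K36me3 points of cKO lie above those of WT for every gene but Slfn1, which is at 0.

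Of 12 merged H3K36me3 regions that touched a member window, 3 were gained, 0 lost, 7 in all 4 libraries and 2 in other combinations. Over all merged regions of the mark 2.45% were gained and 9.5% lost. Counted by gene, 3 of 6 members with a region had a gained one and 0 of 6 a lost one, against 8.47% and 23.6% of such genes. A pair of the gained regions lay in Slfn4. The first (chr11:83179437-83182204, 2768 bp) held exon 5 of the 8 exons of Slfn4-201. The second (chr11:83183655-83186898, 3244 bp) held exons 6 and 7 and also touched the upstream part of the Slfn3 window. The other (chr11:83020742-83022455, 1714 bp) reached from exon 1 of Slfn8-201 into its promoter, and was only 501 bp long in cKO replicate 1. Limited to regions of at least 1 kb the gained count was 1. Without cKO replicate 2, which eases the rule, it was 6.

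Over the union of the 7 windows (126.944 kb) H3K27ac regions covered 14.2% and 10.2% in WT and 23.4% and 22.9% in cKO. The means were 12.2% ± 2.85 and 23.1% ± 0.349, a difference of 10.9 points (SD, n = 2 each). H3K36me3 regions covered 39.8% and 37.4% in WT and 51.8% and 61.5% in cKO, means of 38.6% ± 1.65 and 56.7% ± 6.91 and a difference of 18 points (SD, n = 2 each). The cKO libraries thus covered more of the family in both marks although each held fewer regions than either WT library. H3K36me3 libraries of cKO had more tags (23782914 and 23503055) than those of WT (15086387 and 14027132). Their control was also another IgG set. The part of depth and control in the difference was not tested.

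H3.3-HA was measured in cells that keep H3.3, so it has no comparison group. A region lay in the window in both libraries at 5 of 7 members and in either library at 6 of 7. Of all protein-coding genes 44.2% had one in both. The share of the union covered was 7.56% and 13.8%, a mean of 10.7% ± 4.41 (SD, n = 2). Slfn2 was covered most, at 43.4% and 29.0%. Its start lay in a region of replicate 1, while the regions of replicate 2 lay on either side of it. Slfn9 had 12.3% and 13.2% and Slfn8 7.96% and 6.81%, and in both genes the GENCODE start was covered in both libraries. The replicates parted at Slfn5 (2.0% and 32.4%) and Slfn3 (1.74% and 11.9%). Slfn4 had regions in replicate 2 alone (5.0%), and Slfn1 had none. By mean the order was Slfn2, Slfn5, Slfn9, Slfn8, Slfn3, Slfn4 and Slfn1, and of the neighbours in it only Slfn9 and Slfn8 did not overlap, apart from Slfn4 and Slfn1, which were both at 0 in replicate 1. The members without H3K27ac in WT were 2 with little or no H3.3-HA (Slfn1 and Slfn4) and Slfn5, where the libraries differed most.

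Genes on either side were measured in the same way. Of 12 protein-coding genes within 200 kb, 11 had a region of each mark in any list. For H3K27ac 1 was higher in both cKO libraries (Rffl, an E3 ubiquitin ligase) and 3 were lower (Cct6b, a chaperonin subunit, Zfp830 and Ap2b1, a subunit of a clathrin adaptor). The other 7 overlapped between genotypes, 0 had a gained region and 2 a lost one. Over all genes with an H3K27ac region, 17.4% were higher, 38.2% lower, 17.3% had a gained and 37.3% a lost region. For H3K36me3 0 were higher, 3 were lower (Cct6b, Rffl and Ap2b1) and 8 overlapped. A gained H3K36me3 region was found at 1 gene (Lig3, a DNA ligase) and a lost one at 1 (Rffl). The shares over all genes with an H3K36me3 region were 7.85% higher, 37.7% lower, 8.47% with a gained and 23.6% with a lost region. With so few neighbours, nothing is read from these counts.

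Values of the nearest genes on either side follow. Unc45b, a myosin chaperone upstream of Slfn5, had no H3K27ac region in 3 libraries and 1.32% in cKO replicate 2. Its H3K36me3 coverage was 4.16% and 1.94% in WT and 0% and 5.70% in cKO. Slfn14, a Schlafen gene downstream of Slfn3 that was not among the members, had H3K27ac over 8.05% and 4.75% in WT and 4.07% and 5.16% in cKO, and no H3K36me3 region in these 4 libraries. Further out, H3K36me3 at Ap2b1 was 75.1% and 78.5% in WT against 34.0% and 72.7% in cKO, at Lig3 50.2% and 40.4% against 9.77% and 41.8%, and at Nle1 50.3% and 43.6% against 13.0% and 44.8%. In these 3 genes cKO replicate 1 stood far below the other libraries. Rad51d and Fndc8 overlapped between genotypes in both marks, and Rasl10b overlapped in H3K36me3 and had no H3K27ac region. The differences between members and neighbours were not tested.

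**Figure D4:**
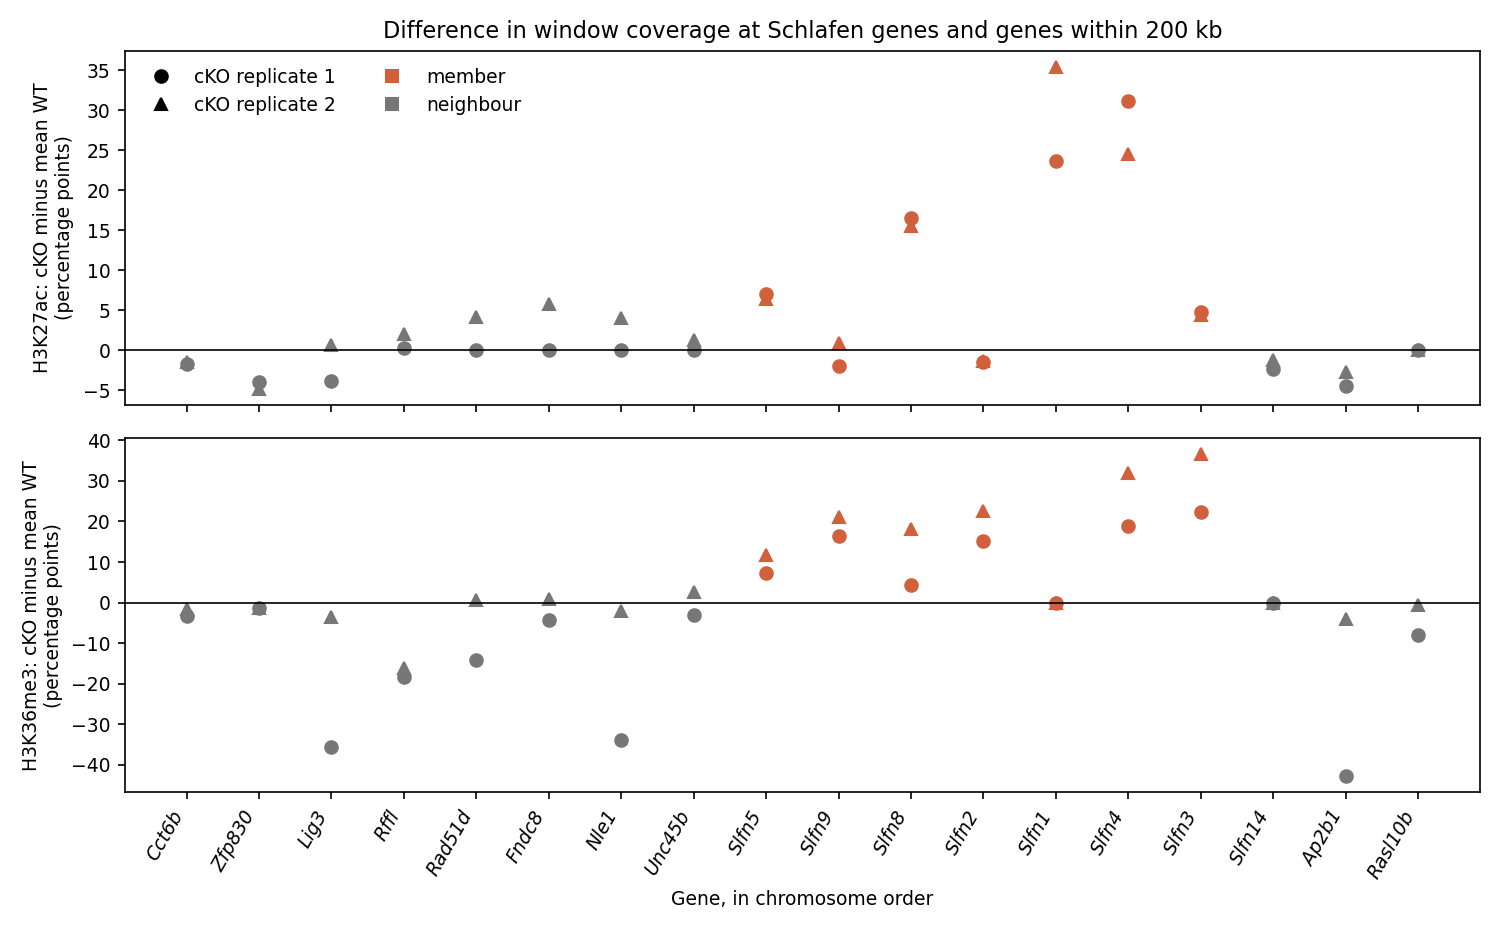
Coverage of each window in cKO replicate 1 (circles) and replicate 2 (triangles) minus the mean of the WT libraries, in percentage points, for H3K27ac (upper panel) and H3K36me3 (lower panel), with genes in chromosome order and 11 of the 12 neighbours shown. Schlafen members (orange) reach 29.6 points on average at Slfn1 for H3K27ac and 29.5 at Slfn3 for H3K36me3, while neighbours (grey) lie near or below 0 for H3K36me3, with circles below triangles at Lig3, Nle1 and Ap2b1.

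Interferon signalling regulates many Schlafen genes, and 20 genes of the pathway were read over the same lists. For H3K27ac 19 had a region, of which 7 were higher in both cKO libraries (among them Ifnar1, Tyk2, Stat2, Irf7, Socs1 and Usp18), 6 lower (Ifngr1, Ifngr2, Jak1, Irf1, Irf2 and Irf5) and 6 overlapping. A gained region was found at 2 and a lost one at 7. Over all genes with an H3K27ac region, 17.4% were higher, 38.2% lower, 17.3% had a gained and 37.3% a lost region. Among the receptors and kinases, Ifngr1, the binding chain of the interferon gamma receptor, had 60.7% and 46.0% in WT and 34.7% and 35.8% in cKO. Jak1, which serves both receptor types, had 29.6% and 30.5% against 8.97% and 11.7%. Among the transcription factors, Stat2 had 0% and 1.84% in WT against 14.0% and 13.9% in cKO. Irf7, the main amplifier of type I interferon, had 9.06% and 5.71% against 23.7% and 15.2%. Irf1 had 7.50% and 1.29% against no region in cKO.

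The negative regulators Socs1 and Usp18 were higher too. Socs1 had 6.04% and 7.95% in WT and 18.3% and 21.9% in cKO, and Usp18 1.67% in both WT libraries and 7.57% and 15.8% in cKO. For H3K36me3 19 of the 20 genes had a region, with 3 higher (Ifngr2, Irf8 and Usp18), 5 lower (Ifnar1, Jak2, Irf1, Irf9 and Socs3) and 11 overlapping. A gained region was found at 1 and a lost one at 2. Over all genes with an H3K36me3 region, 7.85% were higher, 37.7% lower, 8.47% had a gained and 23.6% a lost region. Usp18 was higher in both marks, with H3K36me3 over 27.4% and 31.2% in WT and 54.3% and 70.8% in cKO. Irf9, a partner of STAT2 at the ISRE, had 86.9% and 89.8% in WT and 48.5% and 54.4% in cKO. The receptor and factor genes upstream of the Schlafen family thus did not share a single direction in these lists. Whether their counts differ from the shares over all genes was not tested.

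The pattern of the union of member windows over the 10 lists was compared with that of each of 11580 genes with regions in 4 or more of the 8 mark lists. Among the 5 smallest mean absolute differences in coverage were those of Parvg (3.98 points), an actin-linked adhesion gene of blood cells, Tap2 (4.06), a peptide transporter of antigen presentation, Samd9l (4.29), an interferon-induced antiviral gene, and Rpl12 (4.30), a ribosomal protein gene. Over the 10 lists Tap2 had H3K27ac at 17.4% and 11.8% in WT and 20.1% and 27.9% in cKO. Its H3K36me3 coverage was 36.6% and 36% in WT and 36.7% and 63.2% in cKO, so cKO replicate 1 lay beside WT there.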

How the data were processed

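The authors aligned paired-end reads of 25 bp to mm10 with Bowtie2 (version 2.3.4.1, local mode) and called regions per library with HOMER (histone style), without pooling replicates. Per the file headers, the peak size was 500 bp, the minimum distance 1000 bp and the enrichment over the IgG control at least 4-fold, with Poisson p-value limits of 1e-03 and 1e-04 over the control. The control directory was IgG, WT_IgG or KO_IgG. The deposited lists hold region starts and ends in bp with a constant score, so no signal per region was used. Columns of other samples numbered 0.

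Members, gene lists and motifs were chosen with earlier results of these data known. Windows (body plus 5 kb upstream, GENCODE M21) were intersected with each list in Python 3.11.15 with numpy 2.4.6, after the coverage and calling steps had been tested on simulated data. A merged region was gained where both cKO and neither WT list overlapped it, and lost in the opposite case. Groups came from the sample labels. Named were all members, neighbours within 200 kb with a region in any list of the marks, interferon signalling genes whose values did not overlap, and the 5 genes closest to the union of member windows. Markers of cell types were a fixed list. Some genes these rules name are not reported here. Promoters came from RefSeq (GRCm38.p6) and were compared in pairs with Biopython 1.88. Alternatives were the gene body alone, 5 kb on both sides, regions of at least 1 kb, lists of equal length (the longest regions of each list, as many as the shortest list of the mark holds), at least 50% of a merged region covered for a call, and leaving out each library. Depth is given as tags, and with 2 libraries per group the precision is the spread of that pair.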

Additional observations from a re-analysis of the deposited data

How the results depend on the processing

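No paired analysis was possible because the results come from no test, the replicate numbers being shared by samples of separate groups only. Under 8 alternatives for each mark, H3K27ac coverage was higher in cKO at 4 to 7 members and H3K36me3 at 5 to 6. The difference over the union of windows was 8.91 to 12.9 points for H3K27ac and 13.2 to 22.9 for H3K36me3, and the covered share of H3.3-HA was 6.55% to 13.8%. Leaving out each library in turn gave 5 to 7 members for H3K27ac and 6 for H3K36me3. Leaving a library out can only ease this rule, so these counts say nothing about stability. The corresponding ranges were 8.91 to 12.9 and 13.2 to 22.9 points for the marks, and 7.56% and 13.8% for H3.3-HA. The counts of gained regions moved most. The rule for gained and lost regions is likewise eased when a library is left out, so those rises say nothing about stability. With a library left out, H3K27ac had 3 to 7 gained and 0 to 1 lost regions, and H3K36me3 3 to 6 gained and 0 lost. Regions of at least 1 kb left 1 gained H3K36me3 region, because those of cKO replicate 1 are short. With a call requiring at least 50% of the merged region, 2 were left. Among members whose groups did not overlap, a single direction reversed, H3K27ac at Slfn3 with the gene body only (-0.651 points), since the upstream part of its window lies over Slfn4. The members that overlapped had no fixed sign for H3K27ac. Slfn9 (-0.529 points) gave 5.55 without WT replicate 1 and 0.897 without cKO replicate 1, and Slfn2 (-1.41 points) gave 1.14 with the gene body only and 1.01 without WT replicate 1. With 2 libraries per group and no heights, a missing region shows only that the threshold was not met.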

Other observations

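Between the members lay further regions. A gained H3K27ac region of 1764 bp (chr11:83123872-83125635) lay 7.905 kb 3' of the Slfn1 start, outside its window, and overlapped the processed pseudogene Gm48467. H3.3-HA regions were present there in both libraries, in contrast to the Slfn1 start itself, which had none. Slfn10-ps, a transcribed Schlafen pseudogene between Slfn8 and Slfn2, was covered by H3K36me3 over 87.9% and 88.1% in WT and 94.8% and 96.1% in cKO, with no H3.3-HA region. Upstream of it, 2 H3K36me3 regions were gained (chr11:83040757-83043696 and chr11:83044247-83046714), in a part of the cluster where each of the 4 H3K27ac lists had a pair of regions. They were 817 and 1412 bp long in cKO replicate 1 and 2940 and 2468 bp in replicate 2.

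The stretch of 47.097 kb without a region in any of the 10 lists (chr11:83125694-83172790) ended next to the gained Slfn4 region. Only 1.20% of its positions began a 25-mer that is unique in the genome, and none of its bases was N in the reference. It holds 4 annotated processed pseudogenes of 94 bp each, whose starts lie 11.688, 11.667 and 11.67 kb apart. Few single reads of 25 bp have a unique place there, so absence of a region is not read as absence of the marks. How read pairs were placed there was not tested. In the gained H3K27ac regions the unique share was 97.5% at Slfn1, 96.5% at Slfn5, 77.1% at Slfn4 and 67.9% downstream of Slfn1. In the gained H3K36me3 regions it was 55.3% at Slfn8, 86.7% and 94.3% in Slfn4, and 77.5% and 74.7% upstream of Slfn10-ps.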
